A study of Mus musculus with 12 samples.

Results

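The genes described here encode the subunits of the mitochondrial respiratory chain and ATP synthase that are carried on nuclear chromosomes. They were chosen by symbol, as genes whose RefSeq symbol begins with Ndufa, Ndufb, Ndufc, Ndufs or Ndufv (complex I), Sdha to Sdhd (complex II), Uqcr (complex III), Cox4 to Cox8 (complex IV) or Atp5 (complex V), without pseudogenes. By this rule 100 genes stand in the RefSeq table, 95 of them were among the 18327 symbols named on the array, and 93 passed the filter on dim probes and were tested among 21345 features. Of the 93, 82 are subunits (37 of complex I, 4 of complex II, 8 of complex III, 16 of complex IV and 17 of complex V). The other 11 share the prefixes Ndufa and Sdha but encode assembly factors, which help to build a complex without staying in it, and they are described apart from the subunits. No probe was named for Ndufa4l2, Ndufaf8, Ndufb1, Ndufb4b and Ndufb4c. Cox4i2 was well above background on 1 array and Cox8b on 0, both fewer than the 3 arrays required, and neither was tested.

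The respiratory chain passes electrons from NADH through complex I and from succinate through complex II to ubiquinone. Complex III hands them to cytochrome c, complex IV gives them to oxygen, and complex V uses the proton gradient that results to make ATP. Cleavage-stage mouse embryos live mainly on pyruvate and lactate, which they oxidise in mitochondria inherited from the oocyte. Most subunits are made from nuclear genes and imported, while the core of complexes I, III, IV and V is completed by proteins encoded in mitochondrial DNA, whose genes are not analysed here.

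Expression was measured on single-colour Agilent arrays in 12 single mouse morulae of a (C57BL/6 x DBA/2) F1 strain, 1 whole embryo per array, after 72 h of culture in KSOM medium. The IVF class holds 4 untreated embryos from in vitro fertilisation (embryos 1 and 3 male, 2 and 4 female). The siCont and siXist classes hold 4 male embryos each, cloned by transfer of a nucleus from a Sertoli cell, the supporting cell of the testis, and injected at the 1-cell stage with a control siRNA or with an siRNA against Xist, the RNA that silences an X chromosome. No untreated clone and no siRNA-injected IVF embryo is among the samples, so cloning and injection cannot be told apart in a comparison of either clone class with IVF embryos.

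A level below is the log2 processed signal of a probe minus the 75th percentile of its array, and differences in level are on the log2 scale with the standard error (SE) of a limma fit to all 12 arrays. The share of probes well above background ran from 50.8% to 61.5% over the 12 arrays, with 75th percentiles of 507 to 1133 intensity units. The 3 classes were on 3 different slides, scanned separately, and class and slide cannot be told apart, whereas female and male IVF embryos shared a slide. Clones siCont 3 and siXist 3 stood apart, with the lowest median correlations to other arrays of their class (0.850 and 0.847). For respiratory chain genes, named differences of 0.5 or more between classes are also given without either clone where that moves the difference by over 1.5 times. For marker genes and genes of other lists, how far the differences rest on these 2 clones was not examined. Xist averaged 4.97 ± 0.48 (SD, n = 4) in siCont clones and 1.93 ± 0.48 (SD, n = 4) in siXist clones, without overlap (limma difference -3.04 ± 0.49 SE, adjusted p = 0.138 over all features). Of 10 morula markers on the array, 10 were well above background on 3 or more IVF arrays and 9 in each clone class. Their median differences were -0.91 for siCont minus IVF (5 of 10 at an unadjusted p under 0.05 in limma), -0.53 for siXist minus IVF (1 of 10) and -0.04 for siXist minus siCont (0 of 10). Of the 5, 4 were lower and 1, Krt18, higher (1.08, adjusted p = 0.356 in limma). Cdx2, a trophectoderm factor, was -5.77 for siCont minus IVF (adjusted p = 0.335 in limma), with an SD of 5.42 among siCont clones. Sox2, a factor of the inner cells, was -5.25 for siCont and -6.89 for siXist minus IVF (adjusted p = 0.361 and 0.229 in limma). Cdx2 was well above background on 11 of 12 arrays and Sox2 on only 6, so these sizes rest partly on values near background. The part of these differences in the results below was not tested. The summed linear level of 10 Sertoli cell markers ranged from 5.31 to 47.6 (IVF), 9.19 to 87.9 (siCont) and 57.4 to 155 (siXist), while Amh, a defining one, was well above background on 0 arrays. In every class, IVF embryos included, 6 of the 10 cleared background on at least 3 arrays. Without Rhox5 the sum over the other 9 was 4.45 to 5.31, 2.79 to 13 and 3.53 to 15.6, so that Rhox5 made up most of the higher sums. For 7 cumulus cell markers the summed level was 2.26 to 4.52 (IVF), 3.99 to 8.77 (siCont) and 3.34 to 7.33 (siXist), with Pgr above background on 0 arrays. Of 4 tested, 4 were higher for siCont minus IVF, and 3 were higher and 1 lower for siXist minus IVF. Ptx3, well above background on 6 arrays, was at 3.02 for siCont minus IVF and -4.26 for siXist minus siCont (adjusted p = 0.141 and 0.163 in limma). The part of cumulus cell transcripts in the results below was not tested. Rhox5, an X-linked gene among the Sertoli cell markers, was the 1 of 8 tested that passed the test (siXist minus IVF 6.61, adjusted p = 0.0459 in limma). Its IVF mean joins males at -2.27 and -7.82 with females at 5.43 and 5.09, and the siXist clones lay at 5.68 to 7.24. Of the 8, 3 were higher and 5 lower for siXist minus IVF. At an unadjusted p under 0.05 in limma, Cldn11 was also higher there (2.15, adjusted p = 0.366) and Sox9 lower (-5.51, adjusted p = 0.289). Cldn11 cleared background on 5 arrays and Sox9 on 10. What part Sertoli cell transcripts had in the results below was not tested. Since an array holds a whole embryo, fewer cells of a type and less RNA per cell cannot be told apart.

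No respiratory chain gene passed the test in any comparison. Of 93 members tested in limma, 0 were called at an adjusted p under 0.05 between siCont clones and IVF embryos, where 0.281% of all features were called. The count was also 0 between siXist clones and IVF embryos (0.403% of all features), between siXist and siCont clones (0.00937%) and between female and male IVF embryos (0.0141%). At an unadjusted p under 0.05 the members' counts were 1, 6, 3 and 1, or 1.08%, 6.45%, 3.23% and 1.08%, against 12.1%, 12.6%, 12.7% and 1.86% of all features. In the comparison of siXist clones with IVF embryos, 1 of the 6 was higher and 5 lower, against 4.46% and 8.14% of all features. The 1 member of the first comparison was higher (6.04% of all features) and the 3 between the clone classes were lower (8.84%). With a trended, robust variance in limma these counts were 3, 9, 4 and 1, with 0 called after adjustment. In the 3 comparisons between classes they were 6, 13 and 4 with normexp and quantile normalisation, and 44, 3 and 23 in the authors' deposited table, where the medians of all features were shifted too (-1.13, -0.20 and 0.91), again with 0 called. The comparisons between classes share arrays with each other and are not independent.

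Subunit levels differed little between classes. The median difference over 82 subunits was 0.02 for siCont minus IVF, with 44 higher and 38 lower, beside -0.03 over all features. It was -0.15 for siXist minus IVF (27 higher, 55 lower, all features -0.24) and -0.22 for siXist minus siCont (17 higher, 65 lower, all features -0.22). Relative to the median of all features, the subunits thus lay at 0.05, 0.09 and 0.00. The signs of the last pair of medians depended on scaling, since quantile normalisation gave 0.10 in both, with 53 of 82 and 57 of 82 subunits higher. In the authors' deposited table the medians were -1.07, -0.11 and 0.91, where all features lay at -1.13, -0.20 and 0.91, and the same shift runs through each complex described below. Differences within 0.5 of 0 were found for 82.9%, 75.6% and 86.6% of subunits in the 3 comparisons. The same held for 43.6%, 42.1% and 40.0% of all features, and for 55.3%, 51.9% and 51.6% of the 12746 features that, like 79 of the 82 subunits, were well above background on all arrays. Neither set was matched to the subunits for level, and the part of brightness in these shares was not tested.

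The fit also bounds how large a difference could be. The 95% limma interval of the difference lay wholly within 2-fold either way for 37 of 82 subunits (45.1%) between siCont clones and IVF embryos, for 23 (28.0%) between siXist clones and IVF embryos and for 21 (25.6%) between the clone classes. The corresponding shares of all features, not matched to the subunits for level, were 8.94%, 7.73% and 6.18%. Cox4i1, the ubiquitous form of a regulatory complex IV subunit, is an example, at 6.82 ± 0.15 for IVF, 6.95 ± 0.29 for siCont and 6.92 ± 0.28 for siXist (SD, n = 4 each). Its intervals ran from -0.51 to 0.77 for siCont minus IVF and from -0.66 to 0.61 for siXist minus siCont. For the remaining subunits the intervals reached past 2-fold in at least 1 direction.

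**Figure D1:**
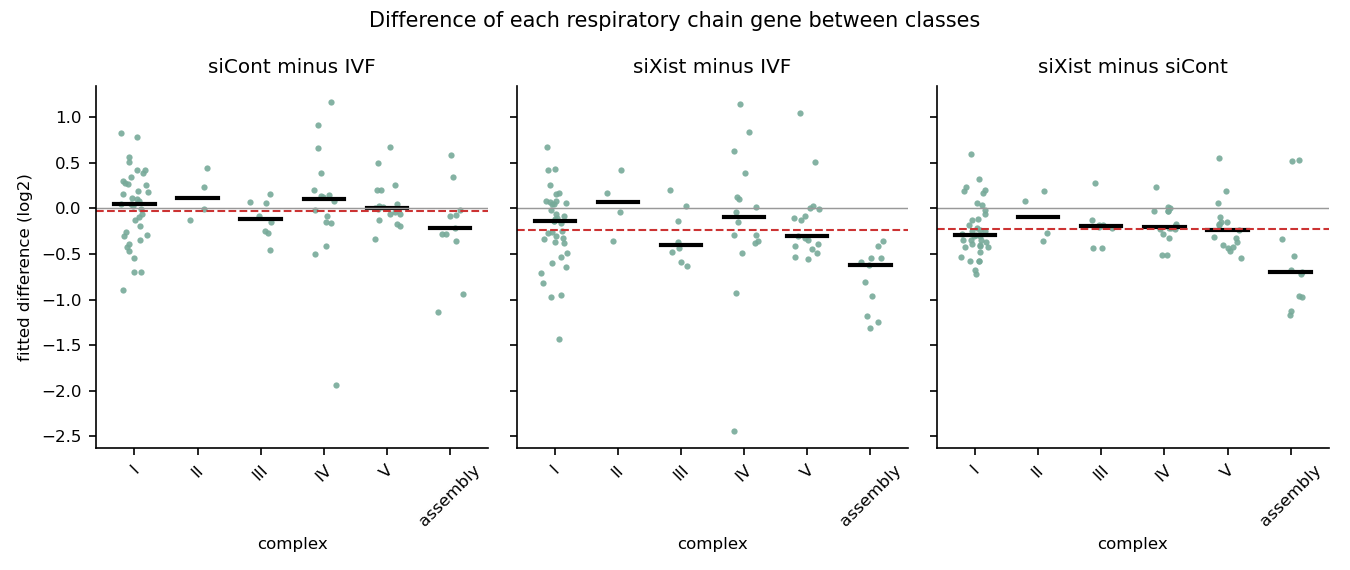
Fitted log2 difference (vertical axis) of each tested member, grouped by complex I to V and the assembly factors (horizontal axis), for siCont minus IVF, siXist minus IVF and siXist minus siCont; each point is a gene, black bars are group medians, the grey line is 0 and the red dashed line is the median of all features. For siXist minus IVF the median of complex II (0.07) lies above the dashed line (-0.24) and that of complex III (-0.40) below it. The medians of the assembly factors (-0.21, -0.62 and -0.70 from left to right) lie below the dashed line in each panel. In the last panel Ndufaf3 and Sdhaf1 lie above it.

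The embryos of a class resembled each other more in these genes than in most. The median over subunits of the SD within a class was 0.29 for IVF, 0.46 for siCont and 0.49 for siXist. Over all features it was 0.58, 0.82 and 0.78, and over features well above background on all arrays 0.40, 0.64 and 0.59. Neither set was matched to the subunits for level, and the part of brightness in this evenness was not tested. The most even subunits were Cox4i1 and Uqcrfs1, the Rieske iron-sulfur protein of complex III, whose SD reached 0.29 and 0.30 in the most variable class. The least even were the tissue isoforms Cox6a2, Cox7b2 and Cox8c, which were also the dim ones.

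The shift common to the subunits was followed in each embryo. The median of the subunits relative to their IVF means was 0.00, 0.33, -0.10 and -0.22 in IVF embryos 1 to 4. It was 0.10, -0.16, 0.50 and -0.21 in siCont clones 1 to 4 and 0.14, -0.18, -0.93 and 0.03 in siXist clones 1 to 4. Clone siXist 3 was the lowest embryo and siCont 3 the highest, and the other 6 clones lay within the IVF range. In clone siXist 3 all features lay at -0.54, and complexes I, III, IV and V at -0.84, -0.98, -0.65 and -0.96. In clone siCont 3 all features lay at 0.10 and the same complexes at 0.53, 0.34, 0.61 and 0.54. Without siXist 3 the subunit median for siXist minus IVF was 0.04 (45 of 81 higher), and without siCont 3 that for siCont minus IVF was -0.13 (30 of 82 higher). For siXist minus siCont the median was -0.02 without siXist 3, -0.07 without siCont 3 and 0.12 without both (60 of 81 higher). The direction of the subunit medians thus rested on these arrays, and siXist 3 also had the highest share of probes above background and siCont 3 the lowest, a relation whose part in the result was not tested.

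**Figure D2:**
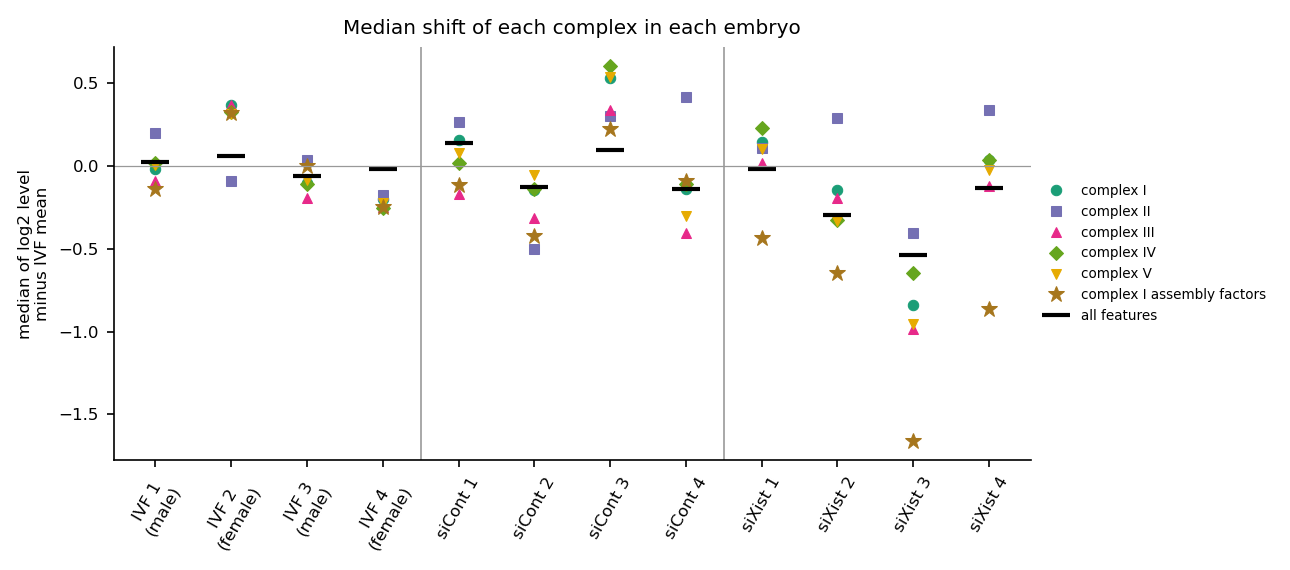
Median over the genes of each complex of the log2 level minus the mean of the IVF embryos (vertical axis) in each of the 12 embryos (horizontal axis), with complex I assembly factors as stars and all features as black bars. Clone siXist 3 has the lowest subunit medians and siCont 3 the highest for complexes I, IV and V, while the stars are below 0 in all 4 siXist clones.

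**Figure D3:**
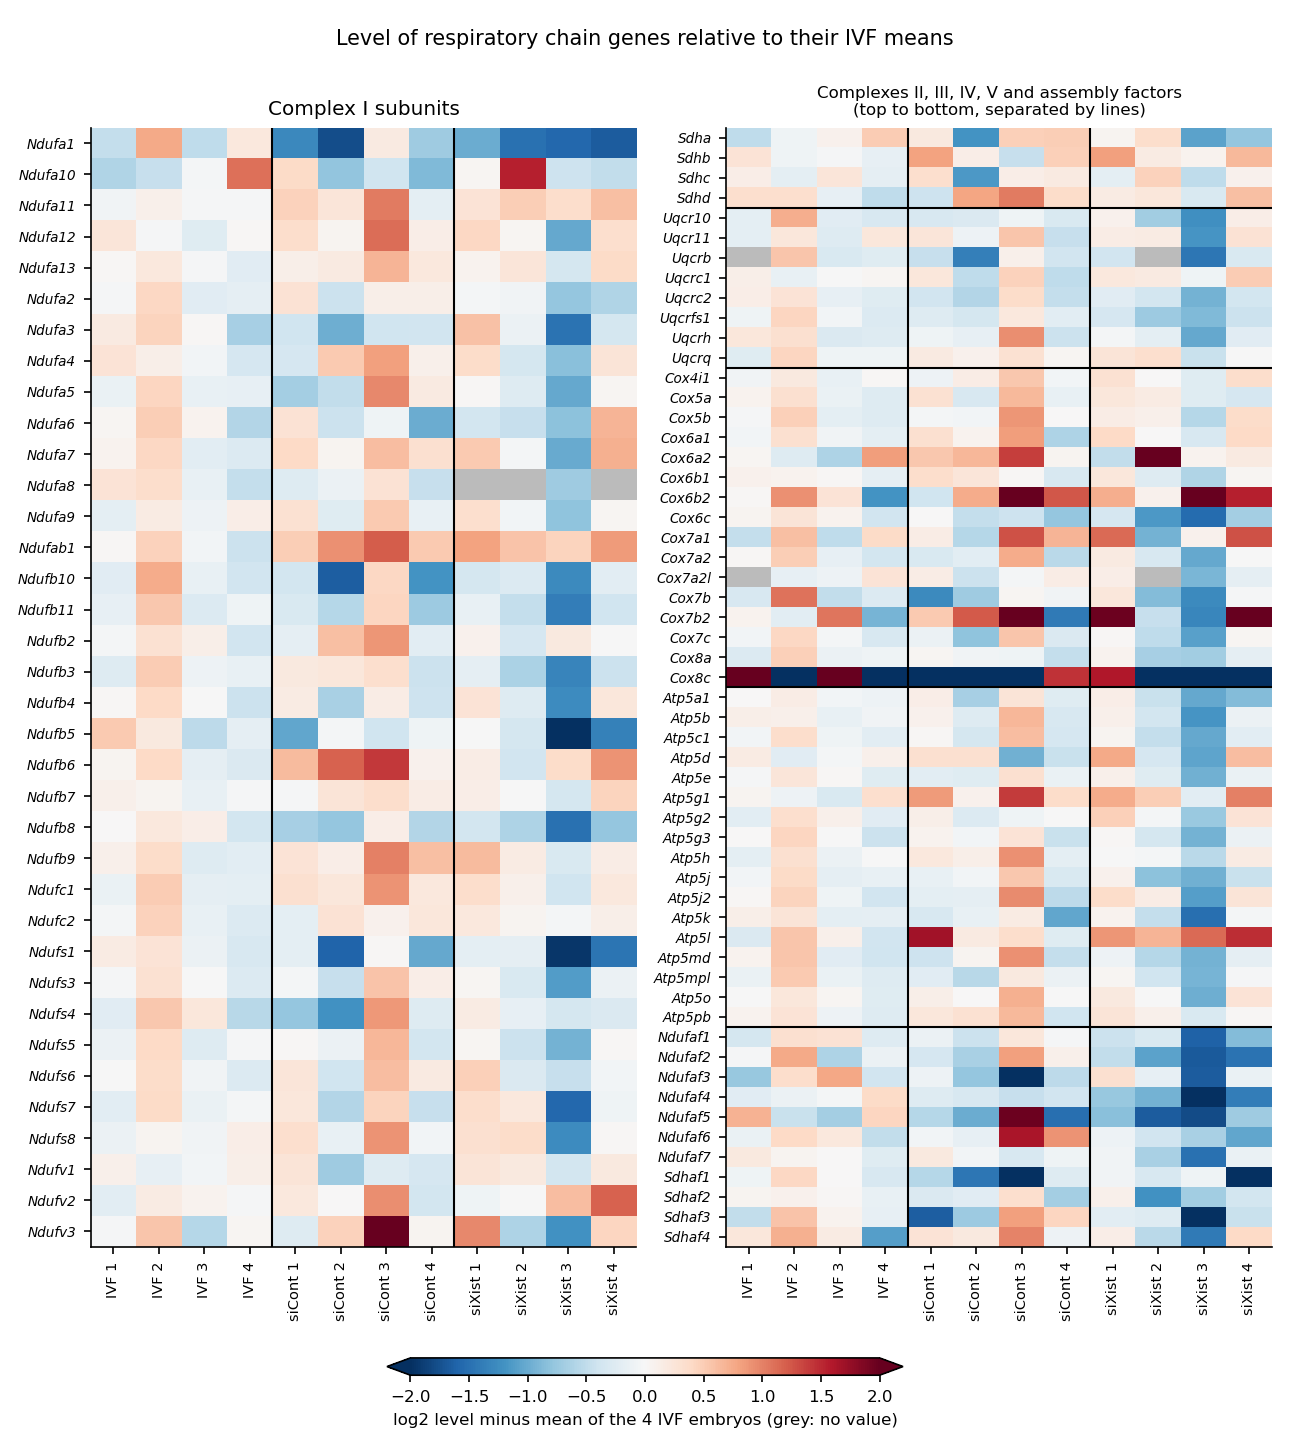
Level of the tested members, without 1 that is not reported by name, in each embryo as the log2 level minus the mean of the 4 IVF embryos (colour, limited to 2 either way; grey, no value), with complex I subunits on the left and the other groups on the right. Columns siCont 3 (mostly red) and siXist 3 (mostly blue) differ across many rows, and Ndufa1, Ndufaf4 and Ndufab1 keep 1 colour across most clones.

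Promoter sequence was read for the members because these genes share known regulators, the factors NRF-1, NRF-2 (an ETS protein) and YY1. RefSeq windows on GRCm38.p6, from 250 bases before to 50 after the transcription start, were matched by symbol for 78 of the 93 members. The letters GCGCATGCG (NRF-1), CCGGAAG (ETS) and AAGATGGCG (YY1) were searched on both strands. At least 1 of the 3 was present in 32 of 78 member windows (41.0%), against 20.5% of 11647 tested genes with a window and 11.8% of all 27025 windows. The NRF-1 letters were in 10 members (12.8%, against 3.26% of tested genes and 1.81% of all windows), the ETS letters in 20 (25.6%, against 15.8% and 9.12%) and the YY1 letters in 6 (7.69%, against 2.75% and 1.5%). A match is a description of the sequence and not a measured site. The 250 bases before the start are printed for 4 members whose classes did not overlap in a comparison described below, with NRF-1 and ETS letters on either strand in capitals. Ndufaf4 holds the NRF-1 letters on both strands in 1 overlapping run that starts at position -113 from the transcription start. Atp5l holds them at -241 and the ETS letters at -212, and Ndufa1 and Ndufab1 hold none of the 3.
Ndufaf4, chr4:24897833-24898082, plus strand: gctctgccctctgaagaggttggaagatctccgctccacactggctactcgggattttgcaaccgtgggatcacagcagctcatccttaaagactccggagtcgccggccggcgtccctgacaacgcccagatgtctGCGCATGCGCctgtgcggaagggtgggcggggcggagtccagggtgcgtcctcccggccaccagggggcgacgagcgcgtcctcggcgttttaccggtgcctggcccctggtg
Atp5l, chr9:44920743-44920992, minus strand: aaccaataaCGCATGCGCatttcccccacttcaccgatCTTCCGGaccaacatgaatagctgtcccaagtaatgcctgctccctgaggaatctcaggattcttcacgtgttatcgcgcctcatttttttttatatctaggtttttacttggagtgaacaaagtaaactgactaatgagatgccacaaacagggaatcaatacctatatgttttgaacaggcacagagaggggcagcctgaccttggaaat
Ndufa1, chrX:37191239-37191488, minus strand: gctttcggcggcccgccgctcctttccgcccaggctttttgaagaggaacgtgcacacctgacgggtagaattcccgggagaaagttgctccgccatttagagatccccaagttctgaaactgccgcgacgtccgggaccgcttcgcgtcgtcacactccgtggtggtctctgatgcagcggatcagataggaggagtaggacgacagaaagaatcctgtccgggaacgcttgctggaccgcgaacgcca
Ndufab1, chr7:122101849-122102098, minus strand: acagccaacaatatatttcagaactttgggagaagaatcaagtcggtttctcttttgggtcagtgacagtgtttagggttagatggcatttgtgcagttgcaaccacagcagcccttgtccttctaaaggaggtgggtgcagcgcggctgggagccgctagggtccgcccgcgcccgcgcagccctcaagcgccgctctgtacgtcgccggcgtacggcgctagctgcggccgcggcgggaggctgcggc

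The assembly factors of complex I lay lowest in siXist clones. All 7 tested (Ndufaf1 to Ndufaf7) had lower means in siXist clones than in IVF embryos, with a median difference of -0.80, and 6 of 7 had lower means than in siCont clones, with a median of -0.96 (6 of 7 higher in the authors' deposited table). Between siCont clones and IVF embryos the median was -0.08, and there too 6 of 7 had lower means in the clones. None was called (smallest adjusted p 0.171 in limma), and the counts at an unadjusted p under 0.05 were 2 of 7 (28.6%) for siXist minus IVF, 3 (42.9%) for siXist minus siCont and 0 for siCont minus IVF, against 12.6%, 12.7% and 12.1% of all features. The median over the 7 genes relative to IVF was -0.44, -0.65, -1.66 and -0.86 in siXist clones 1 to 4, against -0.12, -0.42, 0.22 and -0.09 in siCont clones and -0.14, 0.32, 0.00 and -0.25 in IVF embryos. Relative to the median of all features, the difference was -0.57 for siXist minus IVF and -0.73 for siXist minus siCont, and -0.54 and -0.66 after quantile normalisation. The authors' deposited table, whose per-array constants shift all features by 0.91 for siXist minus siCont, put 6 of 7 higher there (median 0.18), which is 0.73 below that shift. Without clones siCont 3 and siXist 3 the medians were -0.53 (1 higher, 6 lower) and -0.35 (1 higher, 6 lower). Relative to the median of all features, these were -0.40 for siXist minus IVF and only -0.25 for siXist minus siCont.

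Ndufaf4, which acts with Ndufaf3 in an early step of complex I assembly and whose promoter is printed first, had the smallest p of all members. Its level was 3.76, 3.86, 3.95 and 4.38 in IVF embryos 1 to 4, 3.72, 3.67, 3.52 and 3.61 in siCont 1 to 4 and 3.22, 3.04, 1.83 and 2.6 in siXist 1 to 4. The 4 siXist clones lay below every other embryo, and the siCont clones lay just below the IVF embryos, so the 3 classes did not overlap. The difference for siXist minus IVF was -1.31 ± 0.35, 2.48-fold lower (limma adjusted p = 0.171, range 0.109 to 0.602 over alternatives). That for siXist minus siCont was -0.96 ± 0.35 (adjusted p = 0.360). Its 3 kept probes gave -1.31, -1.0 and -1.11 for siXist minus IVF (the last above background on 4 arrays), and without siXist 3 the difference was -1.03.

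Ndufaf2, which assists a late step of assembly, was at 3.0, 3.79, 2.42 and 2.92 in the IVF class, 2.69, 2.39, 3.85 and 3.13 among siCont and 2.55, 1.96, 1.35 and 1.55 among siXist clones. All but the highest siXist clone lay below every embryo of the other classes (siXist minus siCont -1.16 ± 0.43, adjusted p = 0.360 in limma, and -0.72 without siCont 3 and siXist 3). Ndufaf6, an early-acting factor related to phytoene synthases, stood at 2.31 ± 0.40 in siXist and 3.43 ± 0.85 in siCont clones (SD, n = 4 each), a difference of -1.12 ± 0.46 (adjusted p = 0.374 in limma), or -0.73 without both of those clones. Ndufaf5, which modifies the core subunit Ndufs7, differed by -0.97 ± 0.73 between the clone classes and by only -0.23 without siCont 3, whose value of 3.52 was the highest. Ndufaf1, a factor of the membrane arm, differed by -0.72 ± 0.37 and Ndufaf7, a methyltransferase, by -0.52 ± 0.36, which became -0.45 and -0.22 without siXist 3. Ndufaf3, the partner of Ndufaf4, had a mean 0.53 ± 0.63 higher in siXist than in siCont clones, a difference of 0.05 without siCont 3 (at -2.14) and 0.95 without siXist 3. For siCont minus IVF it differed by -0.94 ± 0.63 (adjusted p = 0.584 in limma), and by -0.46 without siCont 3.

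**Figure D4:**
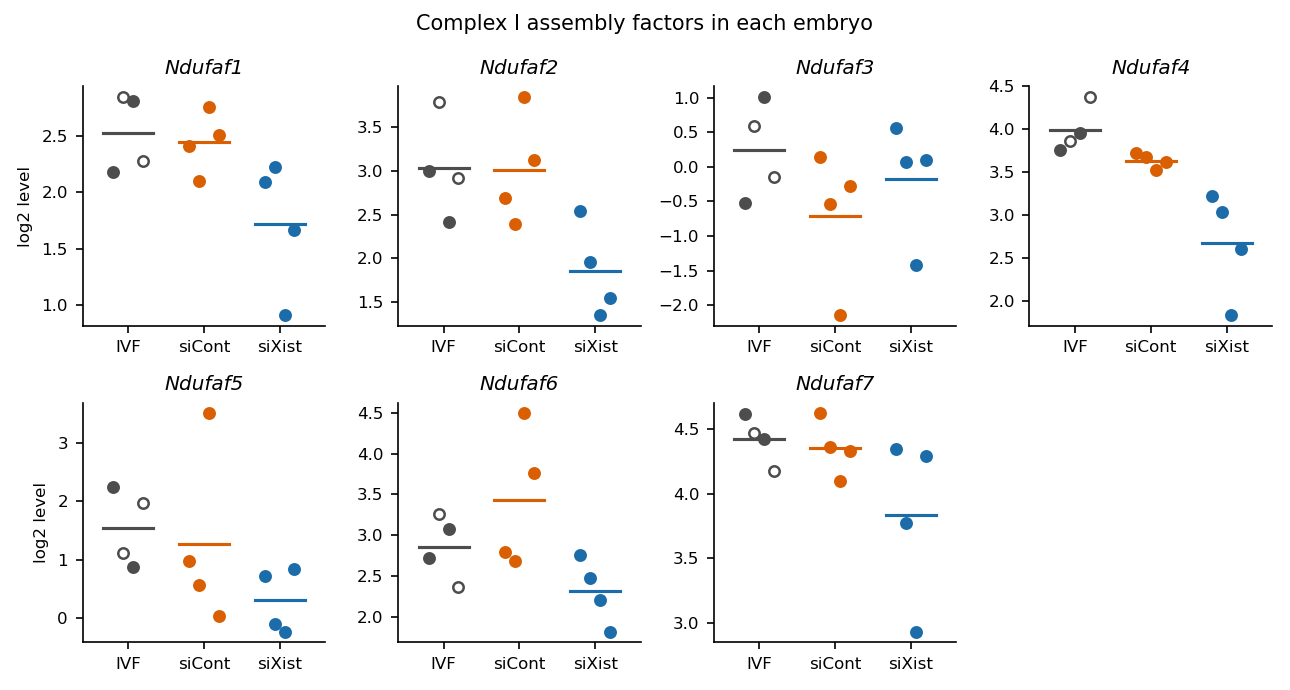
Log2 level relative to the array's 75th percentile (vertical axes, which differ between panels) of the 7 tested complex I assembly factors by class; each point is an embryo, open circles are female IVF embryos and bars are class means. In Ndufaf4 the siXist points (1.83 to 3.22) lie below all others, and in Ndufaf3 the classes overlap.

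Of the 4 assembly factors of complex II, none was called. Sdhaf1, needed to insert iron-sulfur clusters into Sdhb, was at 1.86, 2.36, 1.95 and 1.62 in the IVF class, 1.37, 0.50, -0.33 and 1.69 among siCont and 1.88, 1.62, 1.87 and -0.07 among siXist clones. Of the siCont clones 3 of 4 lay below every IVF embryo, and 1 siXist clone did (siCont minus IVF -1.14 ± 0.57, adjusted p = 0.464 in limma, and -0.76 without siCont 3). Sdhaf2, which attaches FAD to Sdha, differed by -0.54 ± 0.36 (-0.32 without siXist 2; its other probes gave the opposite sign for siXist minus siCont) and Sdhaf4, which binds the flavinated Sdha, by -0.36 ± 0.52 for siXist minus IVF. For siXist minus siCont, Sdhaf4 differed by -0.70 (adjusted p = 0.568 in limma), by -0.35 without siXist 3 and by -0.13 without siCont 3 as well. The next values are again for siXist minus IVF. Sdhaf3, which works with Sdhaf1, differed by -0.96 ± 0.73, with siXist 3 at -2.99 and a difference of -0.30 without it.

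Complex I subunits had median differences of 0.05 (21 higher, 16 lower), -0.14 (12 and 25) and -0.29 (8 and 29) in the order siCont minus IVF, siXist minus IVF and siXist minus siCont, the last pair turning to 0.09 and 0.06 under quantile normalisation. Ndufa1, a small X-linked subunit of the membrane arm, had the smallest p among the subunits. Its level was 4.88, 6.11, 4.84 and 5.56 in the IVF class, 4.05, 3.57, 5.53 and 4.63 among siCont and 4.36, 3.85, 3.78 and 3.68 among siXist clones. All siXist clones lay below all IVF embryos, males included, and 3 of 4 siCont clones did too. The difference was -1.43 ± 0.43 for siXist minus IVF, 2.70-fold lower (limma adjusted p = 0.222, range 0.122 to 0.478 over alternatives), and -0.90 ± 0.43 for siCont minus IVF (adjusted p = 0.441). A second probe gave -1.21 and -0.81.

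Ndufab1, the mitochondrial acyl carrier protein and a subunit of complex I, was the 1 subunit without overlap between siCont clones and IVF embryos, at 5.31, 5.76, 5.24 and 4.86 in IVF embryos and 5.78, 6.20, 6.51 and 5.81 in siCont clones. In siXist clones it was at 6.10, 5.86, 5.73 and 6.15, so 7 of 8 clones exceeded every IVF embryo. The difference was 0.78 ± 0.32 for siCont minus IVF (limma unadjusted p = 0.0333, adjusted p = 0.366), where 2 of 93 members (2.15%) did not overlap, against 9.49% of all features. It was the higher of them (5.13% of all features) and Ndufaf4 the lower (4.37%). Its second probe gave 0.10, and the direction turned in the authors' table (-0.31), whose median over all features was -1.13 there.

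Ndufb8, a membrane arm subunit, was at 3.88 ± 0.26 in IVF embryos and 3.06 ± 0.48 in siXist clones without overlap (-0.81 ± 0.35, adjusted p = 0.382 in limma). Ndufa11, another membrane arm subunit, was also without overlap, at -1.17 ± 0.08 and -0.74 ± 0.15 (0.43 ± 0.32, adjusted p = 0.594). Ndufb6 had the largest mean of the siCont clones relative to IVF among complex I subunits, 0.83 ± 0.41, with siCont 4 inside the IVF range. Ndufa10 was 0.60 ± 0.56 higher in siXist than in siCont clones, a value set by siXist 2 at 2.38 (0.14 without it). Ndufa8 kept 1 of 4 siXist values, from clone siXist 3, because the scanner software had marked the other spots as outliers, so its difference of -0.71 ± 0.58 rests on that clone, and its second probe gave -0.17. In all, 8 of 93 members (8.6%) did not overlap between siXist clones and IVF embryos, 2 higher (Atp5l and Ndufa11) and 6 lower (Ndufa1, Ndufa8, Ndufb8, Uqcrfs1, Ndufaf4 and Ndufaf5), against 12.2% of all features (3.12% higher and 9.07% lower). Between the clone classes, Ndufa8 and Ndufaf4 did not overlap and were lower (2.15%, where Ndufa8 in siXist clones is the 1 value of clone siXist 3, here and against IVF), against 7.85% of all features (6.39% lower). Core subunits such as Ndufs1, which carries iron-sulfur clusters of the NADH-oxidising arm, and Ndufv1, which binds NADH, differed by -0.95 ± 0.52 (-0.61 without siXist 3) and 0.07 ± 0.31 for siXist minus IVF. For siXist minus IVF the 3 kept probes of Ndufa12 gave -0.06, -0.03 and 0.12 and those of Ndufv3 gave -0.11, 0.27 and 1.19, so the direction of these subunits is uncertain.

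The 4 subunits of complex II, succinate dehydrogenase, showed median differences of 0.12, 0.07 and -0.09, with 2 higher and 2 lower each time (0.32 and 0.18 for the last pair under quantile normalisation). Sdhb, the iron-sulfur subunit, was 0.42 ± 0.35 higher in siXist clones than in IVF embryos, and Sdhd, a membrane anchor, 0.44 ± 0.40 higher in siCont clones. Sdha, the flavoprotein, differed by -0.36 ± 0.49 for siXist minus siCont, where its second probe gave 0.22.

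Complex III subunits had medians of -0.12, -0.40 and -0.19 over 8 genes, the last pair being -0.05 and 0.17 under quantile normalisation. Uqcrfs1 was at 6.24, 6.76, 6.28 and 6.06 in IVF embryos and 6.00, 5.61, 5.46 and 5.90 in siXist clones, which all lay below the IVF embryos, and the siCont clones overlapped both at 5.99 to 6.54. The difference for siXist minus IVF was -0.59 ± 0.30 (adjusted p = 0.443 in limma) and shrank to -0.23 after quantile normalisation. Uqcrb, a ubiquinone-binding subunit, lacked a value in IVF 1 and in siXist 2 and differed by -0.45 ± 0.52 for siCont minus IVF. Uqcrc1 and Uqcrh gave opposite signs in different probes for siCont minus IVF, all within 0.09 of 0.

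Complex IV subunits had medians of 0.10, -0.10 and -0.20 over 16 genes, the last pair turning to 0.22 and 0.15 under quantile normalisation. Cox6c, a nuclear-encoded subunit without isoforms by tissue, was at 6.84, 7.03, 6.85 and 6.40 in the IVF class, 6.78, 6.30, 6.37 and 6.00 among siCont and 6.45, 5.64, 5.24 and 6.10 among siXist clones. All siXist clones but siXist 1 lay below every IVF embryo (-0.92 ± 0.35, limma unadjusted p = 0.0254, adjusted p = 0.321). Several complex IV subunits have isoforms tied to a tissue. Of the ubiquitous partners, Cox7b (partner of Cox7b2) had the largest differences from IVF. They were -0.50 ± 0.48 in siCont clones (-0.69 without siCont 3) and -0.49 ± 0.48 in siXist clones (-0.22 without siXist 3). The other partners differed less. Cox6b1 differed by 0.08 ± 0.30 and -0.15 ± 0.30 from IVF in siCont and siXist clones, Cox6a1 by 0.15 ± 0.37 and 0.12 ± 0.37, Cox7a2 by -0.08 ± 0.41 and -0.29 ± 0.41, and Cox8a by -0.15 ± 0.31 and -0.36 ± 0.31.

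The testis isoform Cox6b2 was well above background on all 12 arrays, at -0.41, 0.48, -0.16 and -1.63 in the IVF class, -0.82, 0.31, 1.65 and 0.81 among siCont and 0.29, -0.34, 1.78 and 1.13 among siXist clones. The classes overlapped, and the differences from IVF were 0.92 ± 0.68 and 1.15 ± 0.68 (adjusted p = 0.625 and 0.518 in limma). They were 0.53 in siCont clones without siCont 3, and 0.39 and 0.62 without IVF 4, the lowest embryo. The muscle isoform Cox7a1 differed by 0.38 ± 0.56 in both clone classes. Cox6a2, Cox7b2 and Cox8c, isoforms of muscle (Cox6a2) and testis (the other two), were well above background on only 9, 5 and 4 arrays, and values below background have no order. Cox8c was above background on both male IVF arrays (-1.66 and -2.61), on siCont 4 (-3.64) and on siXist 1 (-3.49), and on 0 of 2 female IVF arrays, where it was at least 12.9-fold lower than in the males (adjusted p = 0.9998 in limma). Cox7b2 was above background on 1 IVF, 2 siCont and 2 siXist arrays, at up to -2.27 in siCont 3.

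**Figure D5:**
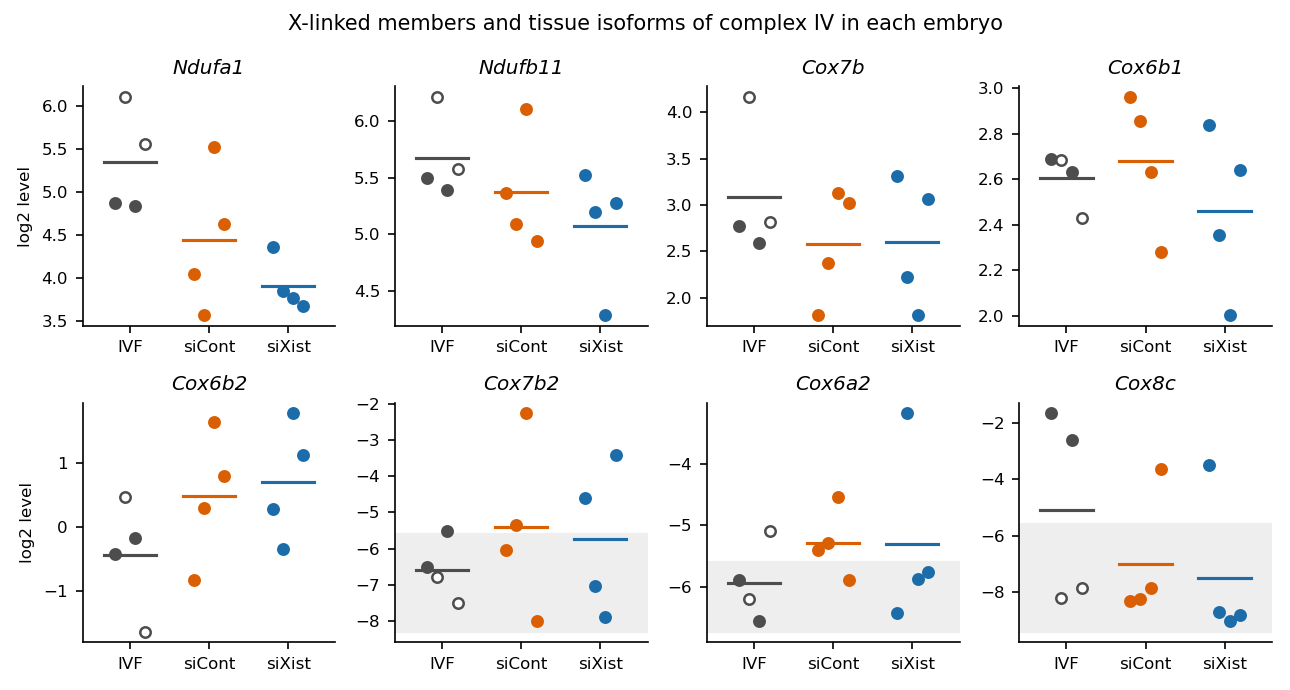
Log2 level relative to the array's 75th percentile (vertical axes, which differ between panels) by class for the X-linked members and for Cox6b1 with the tissue isoforms Cox6b2, Cox7b2, Cox6a2 and Cox8c; points are embryos, open circles are female IVF embryos, bars are class means, and grey marks levels under the highest of the arrays' lowest signals well above background. All siXist points of Ndufa1 (3.68 to 4.36) lie below the IVF points, and Cox8c is above the grey area in 4 embryos.

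Complex V subunits had medians of 0.01, -0.30 and -0.24 over 17 genes, the last pair turning to 0.05 and 0.10 under quantile normalisation. Atp5l, the small membrane subunit g, was at -1.62, -0.77, -1.22 and -1.70 in the IVF class, 0.35, -1.14, -0.98 and -1.57 among siCont and -0.44, -0.65, -0.19 and 0.14 among siXist clones. The siXist clones lay above all IVF embryos, and of the siCont clones only siCont 1 did (siXist minus IVF 1.04 ± 0.45, 2.06-fold, adjusted p = 0.378 in limma). For siXist minus siCont the difference was 0.55 ± 0.45 (adjusted p = 0.607 in limma). The genes Atp5g1, Atp5g2 and Atp5g3 encode the same ring-forming subunit c from different promoters. Atp5g1 differed from IVF by 0.68 ± 0.40 in siCont clones (0.43 without siCont 3) and 0.51 ± 0.40 in siXist clones, Atp5g2 by -0.06 ± 0.34 and -0.01 ± 0.34 (a second probe gave 0.10 for the latter), and Atp5g3 by -0.04 ± 0.34 and -0.35 ± 0.34. Atp5b, the catalytic beta subunit, differed by 0.04 ± 0.37 and -0.39 ± 0.37, with a probe at -0.01 for the former, and Atp5j, the coupling factor F6, by -0.55 ± 0.34 for siXist minus siCont (adjusted p = 0.506 in limma, and -0.23 without siCont 3 and siXist 3). The single low embryo was siXist 3 for Atp5b (6.83) and Atp5c1 (6.52), the gamma subunit.

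The members on the X chromosome, Ndufa1, Ndufb11 and Cox7b, were compared between female and male IVF embryos on 1 slide. Ndufa1 was at 6.11 and 5.56 in females and 4.88 and 4.84 in males, a difference of 0.98 ± 0.61. Ndufb11, a membrane arm subunit of complex I, was at 6.21 and 5.58 against 5.50 and 5.39 (0.45 ± 0.55). Cox7b, a complex IV subunit, was at 4.17 and 2.81 against 2.77 and 2.59 (0.81 ± 0.68). Of the members, 19 of 93 (20.4%) did not overlap between the sexes, against 29.5% of all features. All 3 X-linked genes were without overlap and higher in females, as were 15 of 93 members (16.1%) and 17.4% of all features, and each had an adjusted p of 0.9998 in limma. Female embryo 2 was the highest in each gene and was also the IVF embryo with the highest subunit median (0.33), while female embryo 4 had the lowest (-0.22). Without embryo 2 the differences of Ndufb11 and Cox7b were both 0.13. In the male clones the 3 genes had lower means than in IVF embryos in both classes, by -0.90, -0.29 and -0.50 (siCont) and -1.43, -0.60 and -0.49 (siXist) for Ndufa1, Ndufb11 and Cox7b, and none was called. Without siXist 3 the siXist value of Ndufb11 was -0.34. These comparisons set male clones against IVF embryos of both sexes weighted equally. Ndufa1 in siXist clones was also below both male IVF embryos, while Cox7b in siXist clones spanned them at 1.81 to 3.31.

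Other genes of mitochondrial energy metabolism were set beside the subunits, and 0 of each list were called in the 3 comparisons between classes. At an unadjusted p under 0.05 in limma, against 12.1%, 12.6% and 12.7% of all features, the counts were 3, 7 and 0 of the mitochondrial ribosomal proteins (3.85%, 8.97% and 0%) and 1, 6 and 3 of the import proteins (4.35%, 26.1% and 13%). They were 2, 4 and 0 of the TCA cycle genes (8.70%, 17.4% and 0%) and 5, 3 and 0 of the outside assembly factors (14.7%, 8.82% and 0%). They were 3, 3 and 5 of the regulators (15.8%, 15.8% and 26.3%) and 1, 1 and 0 of the electron carriers (12.5%, 12.5% and 0%). Mitochondrial ribosomal proteins, which translate the mitochondrially encoded subunits, had medians of -0.25, -0.42 and -0.19 over 78 genes, with 72 of 78 lower in siXist clones than in IVF embryos (53 of 78 under quantile normalisation, where the median for siXist minus siCont turned to 0.11). Import proteins had -0.34, -0.64 and -0.34 over 23 genes, with Timm8a1, a chaperone of the intermembrane space encoded on the X chromosome, at -1.22 ± 0.39 for siXist minus IVF (adjusted p = 0.254 in limma). The 23 genes of the TCA cycle and pyruvate dehydrogenase had -0.25, -0.42 and -0.05, led by Cs, citrate synthase (siXist minus IVF -1.71 ± 0.53, adjusted p = 0.230). The 34 assembly factors that the symbol rule did not take in had -0.31, -0.51 and -0.12, with Atpaf1, a factor of ATP synthase, at -1.34 ± 0.41 for siXist minus IVF (adjusted p = 0.226). The 19 regulators of respiratory genes had -0.42, -0.45 and -0.02, with Tfb2m, a transcription factor of mitochondrial DNA, at -1.78 ± 0.50 for siXist minus siCont (adjusted p = 0.347). Among 8 electron carriers and their partners the medians were -0.46, -0.14 and 0.01, and Cyc1, the cytochrome c1 of complex III that the symbol rule leaves out, was at 5.96 ± 0.09 in IVF embryos and 4.89 ± 0.33 in siCont clones (-1.07 ± 0.29, adjusted p = 0.199 in limma). Medians of these lists for siXist minus IVF lay below the -0.15 of the subunits except that of the electron carriers, and the difference between lists was not tested. Quantile normalisation also turned the median for siXist minus siCont of the import (0.03), TCA cycle (0.32) and outside assembly factor (0.14) lists, and kept all these lists below 0 for siXist minus IVF, the electron carriers not being computed there.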

How the data were processed

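RNA of single embryos was amplified in a pair of rounds and labelled with Cy3, per the labels' protocols. Scanner files deposited for each array give intensity values of Agilent Feature Extraction, background-subtracted and detrended within the array, per the file headers. The authors' deposited value table is in log2 units. Set against the scanner values, each of its columns is shifted by 1 amount per array after centring by probe, and what sets that amount is unknown.

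Levels were log2 processed signals minus the array's 75th percentile over non-control probes. Outlier spots were left out and spots of a probe averaged. Probes well above background on at least 3 of 12 arrays were kept, and the kept probe with the highest mean stood for a gene. Of 41174 probes, 26888 (65.3%) were named by accession through the RefSeq table of GRCm38.p6. The array grid was built on another build, so coordinates are given for RefSeq promoters only. Complexes were assigned by symbol, so Ndufa4, now known as a complex IV subunit, is counted in complex I. The 19 pseudogenes of the rule were left out, and cross-hybridisation with them was not tested.

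All 12 arrays were fitted in limma 3.58.1 (R 4.3.3) with means for male IVF, female IVF, siCont and siXist (8 residual degrees of freedom), with Benjamini-Hochberg adjustment over 21345 features. Contrasts with IVF weight the sexes equally. Scripts were tested on simulated data. The values of 1 member are not reported here, though it is counted. The members, lists and tests were chosen with earlier results of these data known. Named were the genes with the 3 largest differences each way or the smallest p in each complex per comparison. X-linked members, tissue isoforms with their partners and members whose probes disagreed were named too. Not every difference by which a gene was named is printed. Others (Ndufaf1, Ndufaf7, Sdhaf3, Ndufb8, Ndufa11, Ndufs1, Ndufv1, Ndufa8, Sdhb, Sdhd, Cox4i1, Atp5c1) were picked with their values in view. Alternatives tried were 2 other background and scaling methods, the authors' table, other filters, the mean of probes, only the groups compared, robust eBayes, a replicate block and fits without single arrays. Replicate numbers are shared by the classes in the titles but did not pair the samples. Whether embryos came from separate matings or transfers is not given in the sources used here, so p-values measure the spread between these embryos. Figures used matplotlib 3.10.9.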

Additional observations from a re-analysis of the deposited data

Results flagged for a closer look

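In 88 groups of 4 embryos examined for a single distant value, 5 had one, and chance gives about 1 in 20. Cox7b was at 4.17 in female IVF embryo 2, with the next embryo at 2.81. Cox8c was at -3.64 in siCont 4 and at -3.49 in siXist 1, each the 1 array of its class well above background for this isoform. Sdhaf1 was at -0.0666 in siXist 4, with the next clone at 1.62. The median of the complex II subunits relative to IVF was -0.50 in siCont 2, with the next siCont clone at 0.27.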

How the results depend on the processing

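In 23 alternatives, 0 members were called in each of the 4 comparisons, as in the fit reported, so no call could be lost. The values that follow changed size or sign. In the authors' deposited table the subunit median was -1.07 for siCont minus IVF and 0.91 for siXist minus siCont, where the medians of all features were -1.13 and 0.91. In the same table the direction turned for siCont minus IVF in Atp5g1 (-0.42), Cox6b2 (-0.18), Ndufab1 (-0.31) and Ndufb6 (-0.27). It turned for siXist minus siCont in Atp5j (0.59), Cox6c (0.63), Ndufaf4 (0.18), Ndufaf5 (0.16), Ndufaf6 (0.0136), Sdhaf4 (0.43) and Uqcrfs1 (0.70), and for female minus male IVF in Ndufb11 (-0.25). Normexp with quantile normalisation turned Cox6c for siXist minus siCont (0.0056). Of 727 values over 32 gene differences, the remaining 714 kept their direction. With 0 members called in every setting, staying on the same side of the threshold says nothing more. Sizes could still change much. Ndufaf2 ranged from -1.40 to -0.03 for siXist minus siCont, and Uqcrfs1 from -0.77 to -0.14 for siXist minus IVF. Ndufa1 ranged less, from -1.58 to -1.07 for siXist minus IVF. Subunit medians ranged from -1.07 to 0.14 (siCont minus IVF), -0.28 to 0.14 (siXist minus IVF) and -0.35 to 0.91 (siXist minus siCont). The cause of these changes was not tested. The fit without siCont 3 and siXist 3 together was added after seeing the data. With the replicate number as a block, 9, 8 and 0 of all features and 0 members were called in the 3 comparisons between classes, and the subunit medians were 0.02, -0.15 and -0.23. Same-numbered embryos deviated together with correlations of -0.14 to 0.06, and 3 of 12 correlated best with their own number. Counts of all features called moved by over 1.5 times elsewhere too. For siXist minus IVF (86) they were 35 in the authors' table, 51 with a filter of 6 arrays and 134 without a filter. For siXist minus siCont (2) they were 0 with normexp and quantile normalisation, 4 in the authors' table and 10 with only the groups compared, and for female minus male IVF (3) 6 with normexp and quantile normalisation, 23 without a filter and 0 with only the groups compared. Leaving out 1 array gave 23 (IVF 3) to 85 (IVF 2) for siCont minus IVF, as few as 31 (IVF 1), 33 (siXist 3), 44 (IVF 3) and 54 (siXist 2) for siXist minus IVF, 5 to 55 (siXist 1) for siXist minus siCont and 3 to 7 for female minus male IVF. The number of arrays limits precision: the median SE of a subunit difference between classes was 0.39, and 3 subunits were dim.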
